A study of Homo sapiens with 6 samples.

Results

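The NF-kB system was examined through 10 genes: the 5 DNA-binding subunits RELA, REL, NFKB1, NFKB2 and RELB, the inhibitors NFKBIA and NFKBIE, the feedback regulators TNFAIP3 and BIRC3, and the adhesion molecule ICAM1. They were picked by symbol, with earlier results of these data known, and all 10 of the 10 symbols had a row among the 25969 genes measured. RNA sequencing covered 3 libraries of cells that received a vector for overexpression of VIM-AS1, a long noncoding RNA read antisense to the vimentin gene, and 3 libraries of cells given the pcDNA3.1 vector as the control, whose genotype the labels give as WT. The cell line is labelled LNCaP, a widely used model of human prostate cancer. No label gives a time after transfection, a dose or a selection step. Whether libraries with the same label are separate cultures is not stated either, and the p-values therefore measure a spread between libraries that may be technical.

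NF-kB factors are dimers that wait in the cytoplasm until a signal releases them. In the canonical branch, receptors of tumour necrosis factor, interleukin 1 or microbial products activate the IkB kinase complex, the inhibitor proteins are degraded, and dimers such as RELA with the p50 product of NFKB1 enter the nucleus. In the noncanonical branch, the kinase NIK (MAP3K14) accumulates when TRAF3 and its partners no longer destroy it, the NFKB2 precursor is cut to p52, and dimers of p52 with RELB form. Several of these genes are themselves NF-kB targets, NFKBIA and TNFAIP3 being textbook negative feedback, and RNA levels do not show protein processing or nuclear entry.

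Values are normalized read counts as deposited, that is, reads divided by 1 factor per library. VIM-AS1 itself stood at 2197, 2019 and 2763 normalized reads in the overexpression libraries, against 8.63, 1.22 and 5.53 in the controls, and total recovered reads ran from 14762893 to 19889745 per library. In either group, library 3 differed from libraries 1 and 2 by a shift that followed GC content (Spearman rho -0.832 across 13168 genes, which are not independent replicates). The fit used for calls therefore has a term for the third libraries. "Rose" and "fell" mean an adjusted p under 0.05 there (limma, Benjamini-Hochberg over 20927 tested genes). That term was picked from these same data, so its p-values may be too small, and without it none of the 10 genes passed. Of the defining LNCaP markers, KLK3 had 0 reads in every VIM-AS1 library and 2, 0 and 0 reads in the controls, and FOLH1 had 0 reads in every VIM-AS1 library, against 4, 2 and 0 reads in the controls. A count of 0 allows up to 3 reads, or 0.151 to 0.203 CPM depending on the library, so the libraries go against the label for these 2 markers. The luminal keratin KRT8 had 75800 ± 21560 normalized reads with VIM-AS1 and 80910 ± 23110 with the control vector (SD, n = 3 each). None of the 8 tested prostate markers was called, and KLK2, TMPRSS2 and STEAP2 had no row among the genes measured.

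RELB and NFKB1 rose most clearly among the 10 genes, and RELA, NFKBIE and ICAM1 rose by smaller amounts. NFKB2, the partner of RELB in the noncanonical branch, did not pass, nor did REL, NFKBIA, TNFAIP3 or BIRC3. In total 5 of 10 rose and none fell. Over all tested genes 19.4% were called in that fit, 2403 (11.5%) higher and 1662 (7.94%) lower, or 3266 higher and 1436 lower after a correction for GC content and length. Calls were more frequent among abundant genes, at 32% of the 9758 genes with a mean of at least 100, of which 23% were higher, and 8 of the 10 members, including all 5 that rose, lay in that range. The median log2 fold change of the 10 genes was 0.31, against -0.02 over all tested genes. Groups did not overlap for RELB, NFKB1 and NFKBIE, 3 of 10 with the overexpression libraries above, and 9.5% of all tested genes lay that way. The genes were chosen with earlier results of these data known, so these shares and the median may partly reflect that choice. With the term, the count was 3 when the first or the second VIM-AS1 library was left out, 1 without the third VIM-AS1 library, 2 without the third control, and 2 (RELB and NFKB1) when the third library of both groups was left out (5.31% of all genes called). Over all genes, 1793 were called higher and 1122 lower of 21025 without the first VIM-AS1 library, and 1468 and 1123 of 21108 without the second. Calls over all genes dropped to 143 and 145 of 20998 without the third VIM-AS1 library, and to 366 and 252 of 20736 without the third control. Without the term, where 0.0239% of genes were called, limma called 0 of the 10, and 3 had an unadjusted p under 0.05. edgeR's quasi-likelihood test also called 0 without the term (0.0191% of all genes called), and DESeq2 called RELB and NFKB1 (1.69% of all genes called). A fit with the replicate number as a block called the 5 above (26.6% of all genes called). That block also takes up the shift of the third libraries, so it is not a fit without such a term.

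**Figure D1:**
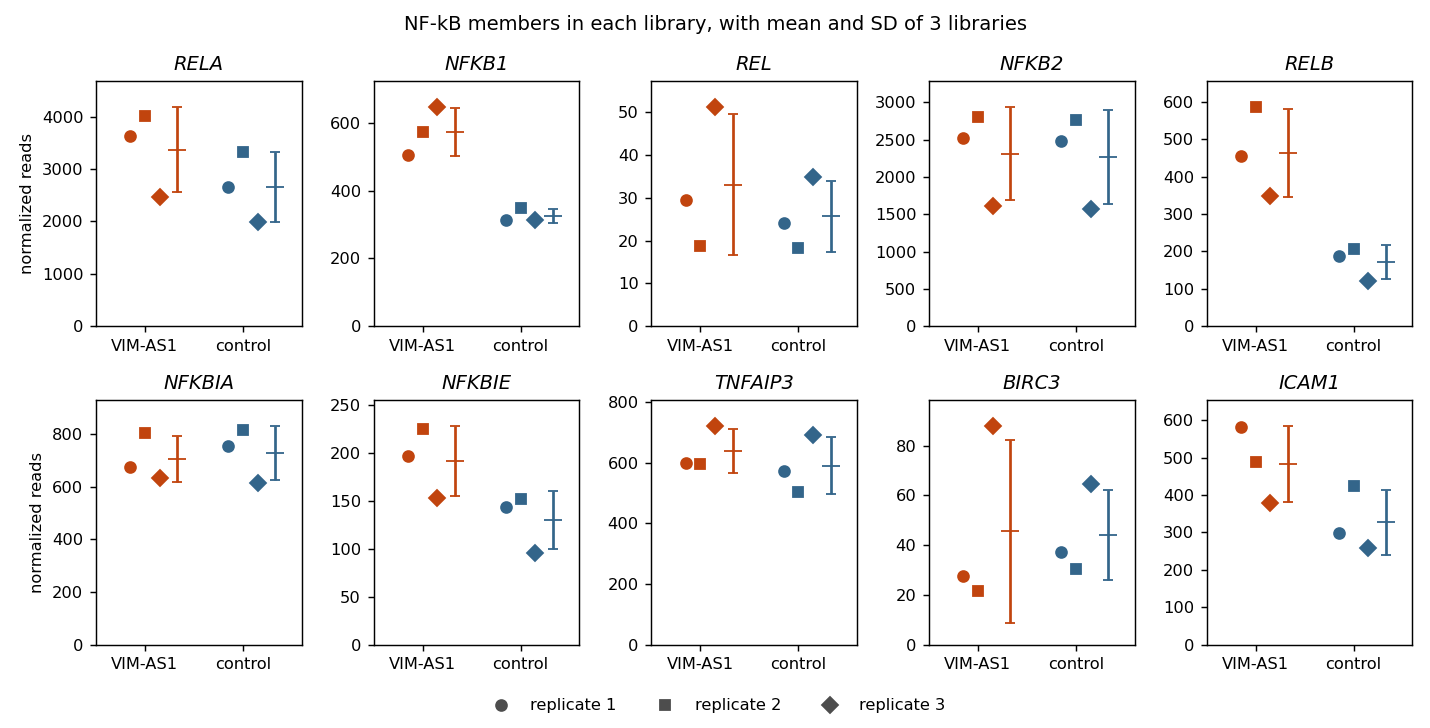
Normalized reads of the 10 genes (vertical axes, linear from 0) in each library, with VIM-AS1 overexpression left of control; marker shapes give the replicate number and bars the mean and SD of 3 libraries. RELB lies between 348.9 and 585.9 in the overexpression libraries, above all controls, while NFKB2 covers the same range in either group and is lowest in the third library of each.

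Promoter sequence is shown before the single genes because several of these genes are known to be regulated by NF-kB itself. RefSeq entries on GRCh38.p14 were present for 8 of the 10 genes, with 12 start sites in all, and RELB and NFKBIE were not among them. The 250 bases before each start were searched on both strands for the kB consensus and for the shorter GGAAANNCC, which overlap where they coincide. The consensus was found for 6 of the 8 genes and GGAAANNCC for 7, against 11.8% and 6.7% of the 27305 genes in the table. These genes were picked as NF-kB genes, several known to be regulated by NF-kB, so a higher share than over all genes is not a result. The number of start sites per gene also differs, with 12 for these 8 genes and 35116 for the 27305. GGAAANNCC was chosen with these sequences in view. RELA had neither. A match is only a run of letters, and its absence says nothing about binding. The NFKB1 promoter, the longest stretch shown for a gene that rose, covers positions -250 to -31 from the start site (chr4:102501109-102501328, plus strand), and that of NFKBIA, shown as the inhibitor that did not pass, covers -250 to -1 (chr14:35404750-35404999, minus strand). Capitals mark the matches.
NFKB1: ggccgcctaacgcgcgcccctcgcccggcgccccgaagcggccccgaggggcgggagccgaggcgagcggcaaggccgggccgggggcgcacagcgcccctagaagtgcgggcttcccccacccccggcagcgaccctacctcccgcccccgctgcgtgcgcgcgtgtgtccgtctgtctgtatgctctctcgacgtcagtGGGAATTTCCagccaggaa
NFKBIA: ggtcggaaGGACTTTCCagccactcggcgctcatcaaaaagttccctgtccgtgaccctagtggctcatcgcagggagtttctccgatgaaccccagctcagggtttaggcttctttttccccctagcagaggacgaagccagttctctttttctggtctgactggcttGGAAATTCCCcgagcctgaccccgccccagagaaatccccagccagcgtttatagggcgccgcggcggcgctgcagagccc

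For the other genes with a match, stretches of 30 bases around matches are given, and further matches of NFKB2 and BIRC3 are not shown. ICAM1 rose, while NFKB2, REL, TNFAIP3 and BIRC3 did not pass, so genes of either outcome carry such letters close to their starts. The NFKB2 site shown first lies at chr10:102394461-102394490 and the second at chr10:102395674-102395703, before different start sites. The REL site lies at chr2:60881517-60881546 and that of TNFAIP3 at chr6:137867188-137867217. The site shown for BIRC3 lies at chr11:102317275-102317304 and that of ICAM1 at chr19:10270923-10270952, and all are on the plus strand.
NFKB2: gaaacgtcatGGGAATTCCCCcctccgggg
NFKB2: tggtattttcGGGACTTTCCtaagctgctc
REL: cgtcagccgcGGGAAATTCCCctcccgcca
TNFAIP3: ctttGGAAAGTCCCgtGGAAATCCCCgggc
BIRC3: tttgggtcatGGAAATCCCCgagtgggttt
ICAM1: tgctttagcttGGAAATTCCggagctgaag

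RELB, the subunit that pairs with p52 and activates transcription in the noncanonical branch, lies on chromosome 19 from 45001430 to 45038198 (ENSG00000104856, GRCh38 with GENCODE 29, plus strand). It stood at 456.2, 585.9 and 348.9 normalized reads in the overexpression libraries, against 187.1, 206.5 and 119.3 in the controls. Every overexpression library was above every control, and the third library was the lowest of its group in either. The reads behind these values were 433, 598 and 341 with VIM-AS1, against 195, 169 and 151 with the control vector. RELB rose by 1.44 ± 0.14 on the log2(value + 1) scale (SE; limma with the term, adjusted p = 1.62e-06, 95% interval 1.15 to 1.73). The difference was 1.39 over libraries 1 and 2 and 1.54 between the third libraries. Without the term its adjusted p was 0.085 in limma and 0.00124 in DESeq2. RELB passed with the term in all 17 alternatives run, with adjusted p from 1.51e-14 to 0.030.

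NFKB1 encodes p105, the precursor of p50, which also acts as an inhibitor through its ankyrin repeats. It lies on chromosome 4 from 102501329 to 102617302 (ENSG00000109320, plus strand). It stood at 505.7, 573.2 and 647.8 normalized reads in the overexpression libraries, against 313.7, 348.2 and 313.6 in the controls. The groups did not overlap, and the controls were close together. NFKB1 rose by 0.82 ± 0.12 (SE; limma with the term, adjusted p = 0.000131), with 0.70 over libraries 1 and 2 and 1.04 between the third libraries. It lost the call only without VIM-AS1 replicate 3 (adjusted p = 0.066), among adjusted p from 1.55e-06 to 0.066 over the 17 alternatives. Without the term its adjusted p was 0.14 in limma and 0.048 in DESeq2.

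RELA encodes p65, the main activating subunit of the canonical branch (ENSG00000173039, chromosome 11, 65653596 to 65663094, minus strand). It stood at 3622, 4018 and 2461 normalized reads in the overexpression libraries, against 2648, 3330 and 1983 in the controls. The groups overlapped, while each overexpression library was above the control of the same number. RELA rose by 0.34 ± 0.11 (SE; limma with the term, adjusted p = 0.030), 0.36 over libraries 1 and 2 and 0.31 between the third libraries. This call was lost when any VIM-AS1 library was left out (limma adjusted p = 0.065 for the first, 0.18 for the second and 0.23 for the third), and without the first (0.067) or the third (0.22) control.

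NFKB2 encodes p100, which holds RELB in the cytoplasm and gives rise to p52 when it is cut (ENSG00000077150, chromosome 10, 102394110 to 102402529, plus strand). It stood at 2520, 2807 and 1616 normalized reads in the overexpression libraries, against 2486, 2765 and 1564 in the controls. Libraries of the same number differed little, and the third library of each group was far below the others. The log2 fold change was 0.03 ± 0.10 (SE; limma with the term, adjusted p = 0.88), with a 95% interval from -0.18 to 0.24 that lies wholly below that of RELB. REL encodes c-Rel, a subunit best known in lymphocytes (ENSG00000162924, chromosome 2, 60881521 to 60931610, plus strand). It had 28, 19 and 50 reads in the overexpression libraries, against 25, 15 and 44 in the controls. With so few reads its interval was wide, from -0.40 to 0.97 around 0.28, and a difference of the size seen for NFKB1 was not excluded at this depth. Of the merged exons of REL, 43.3% are shared with AC010733.2 on the same strand, which had no row among the genes measured, and how the counting treated shared bases was not given.

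**Figure D2:**
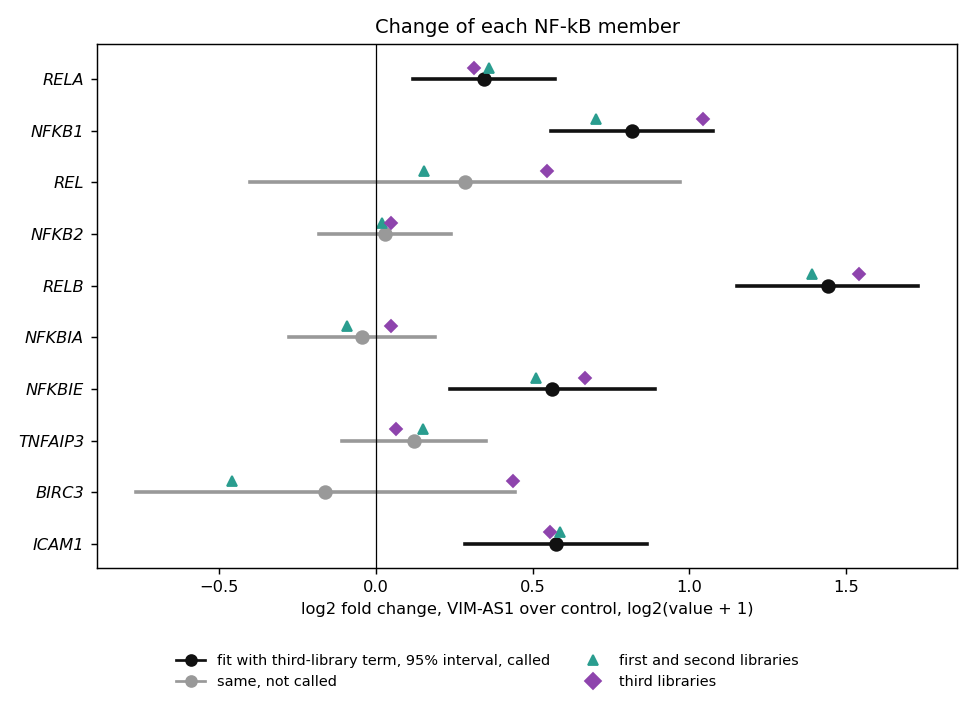
Log2 fold change (horizontal axis, VIM-AS1 overexpression over control) of each gene in the fit with a term for the third libraries, with its 95% interval; triangles give the difference over libraries 1 and 2 and diamonds that between the third libraries. The interval of RELB (1.15 to 1.73) lies above those of the other genes, that of NFKB2 spans 0, and BIRC3 has opposite signs over libraries 1 and 2 (-0.46) and between the third libraries (0.44).

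Set against each other within a library, RELB was higher relative to RELA with VIM-AS1, and NFKB2 was lower relative to NFKB1. These ratios use reads per kilobase of merged exon and do not depend on library scaling. RELB amounted to 0.227, 0.263 and 0.255 of RELA in the overexpression libraries, against 0.127, 0.112 and 0.108 in the controls. The groups lay far apart, and the third libraries did not stand out. The mean ratio was 0.248 ± 0.019 with VIM-AS1 and 0.116 ± 0.010 with the control vector (SD, n = 3 each), a 2.15-fold difference. NFKB2 over NFKB1 was 6.95, 6.83 and 3.48 in the overexpression libraries, against 11.1, 11.1 and 6.96 in the controls. Here the third libraries were the lowest of their groups, and the highest overexpression library nearly touched the lowest control, while each overexpression library was below the control of the same number. These ratios are descriptions with no test.

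**Figure D3:**
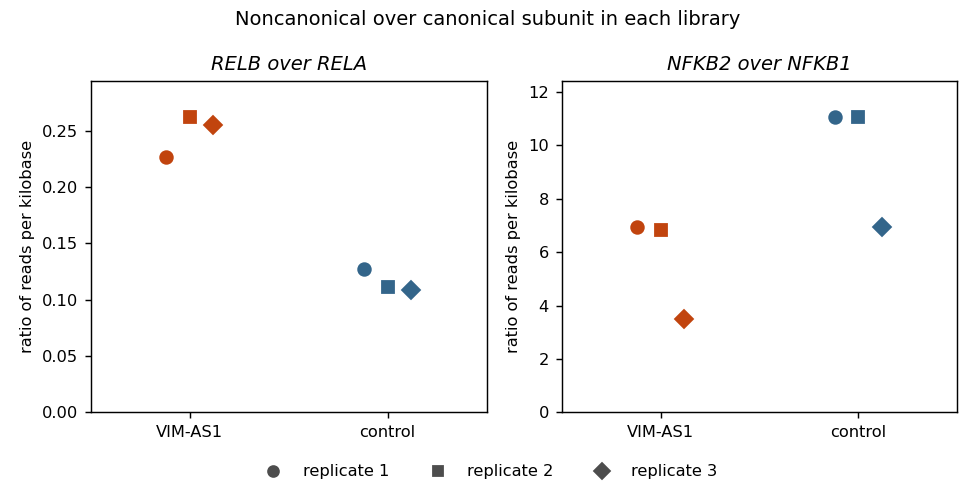
Ratio of reads per kilobase (vertical axes, linear from 0) of RELB over RELA and of NFKB2 over NFKB1 in each library, with VIM-AS1 overexpression left of control and marker shapes for the replicate number. RELB over RELA is 0.227 to 0.263 with VIM-AS1, against 0.108 to 0.127 in the controls, and NFKB2 over NFKB1 is 3.48 to 6.95 with VIM-AS1, against 6.96 to 11.1 in the controls.

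Per kilobase of merged exon, RELA and NFKB2 were the most abundant of the 10 transcripts in either group. With VIM-AS1, RELA had 616.2 ± 148 and NFKB2 516.1 ± 139 normalized reads per kilobase (SD, n = 3). With the control vector, RELA had 485.6 ± 123 and NFKB2 506.6 ± 140, so their order was within the spread in either group. NFKBIA came next, at 296.6 ± 37.0 with VIM-AS1 and 306.5 ± 43.8 with the control vector. RELB was the fourth in the overexpression libraries, at 152.8 ± 39.1, within the spread of ICAM1 (130.5 ± 27.4), which in turn was within that of TNFAIP3 (126.6 ± 14.3). In the controls RELB was the sixth, at 56.3 ± 15.1, within the spread of NFKB1 (52.0 ± 3.19), as NFKB1 was within that of NFKBIE (50.5 ± 11.8). RELB made up 10.3%, 11.7% and 11.1% of the summed per-kilobase level of the 5 subunits in the overexpression libraries, against 5.35%, 5.04% and 4.89% in the controls. BIRC3 and REL were the lowest. BIRC3 had 6.07 ± 4.89 with VIM-AS1 and 5.88 ± 2.41 with the control vector, and REL had 2.51 ± 1.26 with VIM-AS1 and 1.95 ± 0.634 with the control vector.

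The 2 inhibitors differed in outcome. NFKBIA encodes IkB-alpha, the inhibitor that is degraded fastest on canonical signalling and resynthesised under NF-kB control (ENSG00000100906, chromosome 14, 35401511 to 35404749, minus strand). It stood at 674.3, 802.4 and 634.4 normalized reads in the overexpression libraries, against 753.0, 816.1 and 612.9 in the controls. The groups overlapped almost fully. The log2 fold change was -0.04 ± 0.11 (SE; limma with the term, adjusted p = 0.83, 95% interval -0.28 to 0.19). NFKBIE encodes IkB-epsilon, which acts mainly on dimers of RELA and REL (ENSG00000146232, chromosome 6, 44258166 to 44265788, minus strand). It stood at 197.0, 225.3 and 152.5 normalized reads in the overexpression libraries, against 143.9, 151.5 and 95.6 in the controls. The lowest overexpression library was just above the highest control. NFKBIE rose by 0.56 ± 0.16 (SE; limma with the term, adjusted p = 0.0148), and lost the call under library size scaling (0.051), and when the second (0.089) or the third (0.18) VIM-AS1 library or the third control (0.16) was left out.

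Of the feedback and target genes, ICAM1 rose. It encodes the ligand of leukocyte integrins and is a classical target of RELA (ENSG00000090339, chromosome 19, 10270835 to 10286615, plus strand). ICAM1 stood at 582.6, 488.9 and 379.6 normalized reads in the overexpression libraries, against 297.4, 423.9 and 258.3 in the controls. Control replicate 2 was above VIM-AS1 replicate 3, and each overexpression library was above the control of the same number. The rise was 0.58 ± 0.14 (SE; limma with the term, adjusted p = 0.00584), with 0.59 over libraries 1 and 2 and 0.55 between the third libraries, and the call was lost when the first (0.056) or the third (0.16) VIM-AS1 library or the third control (0.13) was left out. An antisense gene, AC011511.5, covers 22% of the merged exons of ICAM1 and had 0 reads in each overexpression library and 1 in each control.

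TNFAIP3 encodes A20, a ubiquitin-editing enzyme that ends signalling from receptors to the kinase complex (ENSG00000118503, chromosome 6, 137867188 to 137883312, plus strand). It stood at 600.5, 594.7 and 722.5 normalized reads in the overexpression libraries, against 574.6, 504.6 and 691.1 in the controls. The third library was the highest of its group in either, and the groups overlapped. The log2 fold change was 0.12 ± 0.11 (SE; limma with the term, adjusted p = 0.50, 95% interval -0.11 to 0.35). The antisense gene AL357060.1 covers 1.9% of the merged exons of TNFAIP3 and fell, at 51.9 ± 17.2 with VIM-AS1 and 82.2 ± 9.72 with the control vector, and without strand in the counting such reads cannot be told apart. BIRC3 encodes cIAP2, a ubiquitin ligase that works with TRAF2 in either branch (ENSG00000023445, chromosome 11, 102317450 to 102339403, plus strand). It had 26, 22 and 86 reads in the overexpression libraries, against 39, 25 and 82 in the controls. The third library was far above the others of its group in either. The log2 fold change was -0.16 ± 0.29 (SE; limma with the term, adjusted p = 0.76), with -0.46 over libraries 1 and 2 and 0.44 between the third libraries.

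The shift of the third libraries ran through these genes by base composition. BIRC3 and REL, whose longest transcripts have a GC content of 34.8% and 38.7%, were higher in the third libraries by 1.37 and 0.90 log2 units on average over the groups. TNFAIP3 (49.5% GC) was higher by 0.32 and NFKB1 (50.1%) by 0.10. The other 6 genes, from 53.1% to 65.4% GC, were all lower there, between -0.28 for NFKBIA and -0.73 for NFKB2. RELB, the richest in GC at 65.4%, had -0.64, with nearly the same difference between groups over libraries 1 and 2 as between the third libraries. After each library's trends with GC content and length were removed, RELB, NFKB1, NFKBIE and ICAM1 passed without the term, in a fit that called 10.7% of all genes (limma adjusted p = 5.79e-05 for RELB and 0.00502 for NFKB1), and RELA did not (0.11).

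The wider pathway was followed in 4 lists, also chosen with earlier results of these data known. They hold 104 genes, of which 93 had a row and 85 were tested. In these, 17 rose, 10 fell and 58 did not pass, or 31.8% called, against the 19.4% of all tested genes given above. Of the 85, 61 had a mean of at least 100, and 15 of these rose and 8 fell (37.7%), against 32% of all genes at that level. The median log2 fold change of the 85 was 0.09. By list, 25% of receptors and ligands, 25.9% of adaptors, ubiquitin enzymes and kinases, 53.3% of other inhibitors and 29.6% of further targets were called. When 1 library was left out, the counts were 11 higher and 5 lower without the first VIM-AS1 library, 7 and 6 without the second, 1 and 1 without the third, 15 and 5 without the second control and 3 and 1 without the third control. In the same order, all genes called numbered 1793 higher and 1122 lower of 21025, 1468 and 1123 of 21108, and 143 and 145 of 20998. Without the second control they numbered 2410 and 1454 of 20979, and without the third control 366 and 252 of 20736. No gene of these lists passed in limma without the term. After the GC and length correction 11 rose and 4 fell without the term, where 10.7% of all genes were called. With the replicate number as a block, which also takes up the shift of the third libraries, 20 rose and 13 fell, where 26.6% were called.

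Receptors and ligands went either way, with 2 higher and 2 lower of 16 tested and a median of 0.02. TNFRSF12A, the receptor of the cytokine TWEAK that feeds the noncanonical branch, rose to 4602 ± 1041 normalized reads in the overexpression libraries, against 2704 ± 955 in the controls (SD, n = 3 each), and TNFSF12, which encodes TWEAK, fell to 34.2 ± 16.3 with VIM-AS1, against 63.4 ± 9.80 with the control vector. The death receptor gene TNFRSF21 rose (log2 fold change 0.94 ± 0.27, SE) and TNFRSF13C, the receptor of the B cell factor BAFF, fell (-1.02 ± 0.20). The main receptors TNFRSF1A and LTBR had log2 fold changes of 0.09 and 0.24 and did not pass. CD40, TNF and IL1B were among 6 of the 27 genes of this list that had no row among the genes measured.

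Among adaptors, ubiquitin enzymes and kinases 6 of 27 rose and IRAK4 fell, with a median of 0.10. MAP3K14, the kinase NIK that drives NFKB2 processing, stood at 702.7 ± 153 normalized reads with VIM-AS1 and 443.4 ± 91.7 with the control vector. TRAF3, which keeps NIK low by directing its destruction, stood at 631.1 ± 42.3 with VIM-AS1 and 387.4 ± 12.4 with the control vector. Their log2 fold changes were 0.66 ± 0.12 and 0.70 ± 0.11 (SE; limma with the term, adjusted p = 0.00063 and 0.000214), so the activator and the brake of the noncanonical branch rose together. IRAK1, a kinase of interleukin 1 and Toll-like receptor signalling, rose by 0.79 ± 0.12 (log2, SE), the kinase gene IKBKE by 0.77 ± 0.17, RNF31, the catalytic part of the linear ubiquitin ligase, by 0.56 ± 0.14, and RIPK1 by 0.53 ± 0.15. IRAK4, which acts just before IRAK1, fell by 0.67 on the log2 scale. The core kinase genes CHUK, IKBKB and IKBKG did not pass, at 0.10, -0.03 and 0.27.

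Of 15 other inhibitors and atypical IkB genes 6 rose and 2 fell, with a median of 0.14. Those that rose were COMMD1 (log2 fold change 0.62 ± 0.16, SE), NFKBIZ (0.48 ± 0.15), TNIP1 (0.48 ± 0.12), TNIP2 (0.45 ± 0.10), OTULIN (0.36 ± 0.12) and NFKBIB (0.35 ± 0.11). TNIP1 and TNIP2 encode partners of A20, OTULIN removes linear ubiquitin chains, NFKBIB encodes IkB-beta, and NFKBIZ encodes a nuclear IkB that can act as a coactivator. BCL3, a nuclear IkB that binds p50 and p52, fell to 480.6 ± 168 in the overexpression libraries, against 693.6 ± 127 in the controls, with -0.30 over libraries 1 and 2 and -1.15 between the third libraries. TRAF3IP2, the adaptor of interleukin 17 receptors, fell by 0.44 on the log2 scale.

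The further target genes went either way, with 3 higher and 5 lower of 27 tested and a median of 0.08. CD83, a surface protein of activated immune cells, rose to 972.7 ± 72.1 normalized reads with VIM-AS1, against 596.5 ± 32.9 with the control vector, and CSF1, which encodes macrophage colony-stimulating factor, rose by 0.48 ± 0.16 (log2, SE). CCL5, a chemokine gene, is counted among the 3 that rose, and had 3, 15 and 1 reads in the overexpression libraries and 0 in all controls. Most of its reads came from the second VIM-AS1 library, and without that library its mean lies below the floor of 3 reads per control library, so no fold is given. PLAU, the urokinase gene, fell to 39.3 ± 5.27 with VIM-AS1, against 87.5 ± 21.9 in the controls, and EFNA1, TNFAIP8, RIPK2 and GADD45B fell by 0.71, 0.48, 0.54 and 0.42 on the log2 scale. CXCL8 and IL6 were near the floor, the means being 2.72 normalized reads of CXCL8 with VIM-AS1 and 1.45 with the control vector, and 5.14 of IL6 with VIM-AS1 and 3.41 with the control vector.

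**Figure D4:**
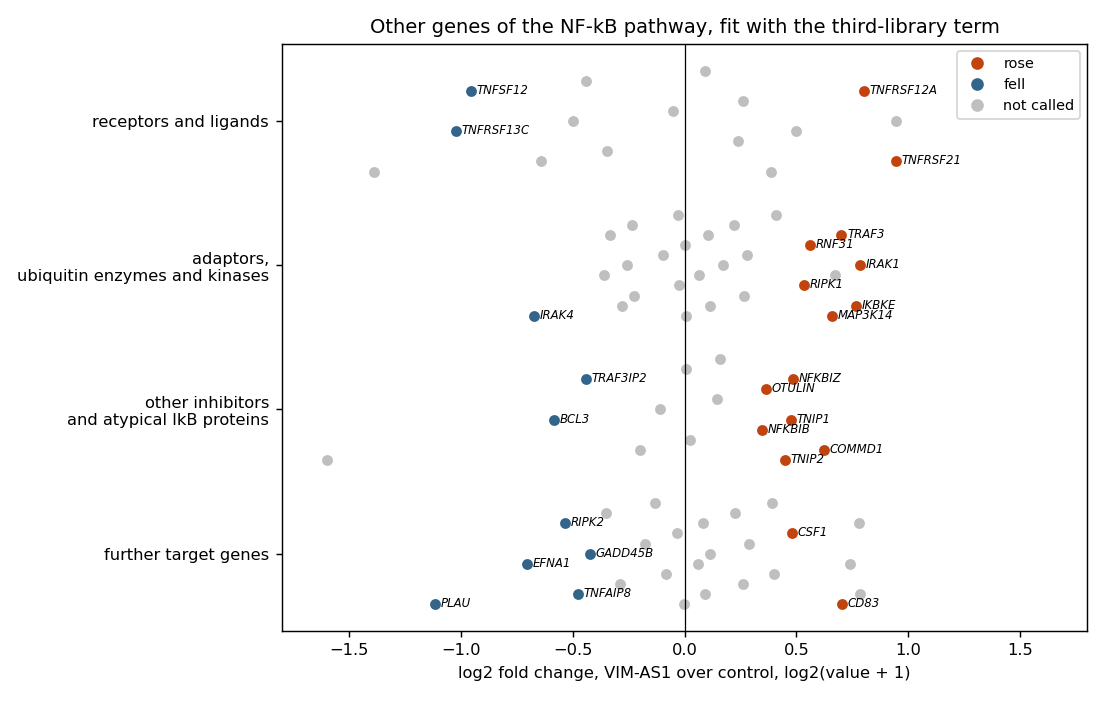
Log2 fold change (horizontal axis, VIM-AS1 overexpression over control) of the other tested genes of the pathway in 4 lists, named where the fit with the third-library term called them; vertical scatter within a list has no meaning, and CCL5 is left out because it had no reads in the controls. Genes that rose outnumber those that fell among adaptors (6 and 1) and inhibitors (6 and 2). The further targets hold 3 and 5, with CCL5 counted among the 3 but not drawn. Rises also outnumber falls over all tested genes (2403 and 1662), and 23% of all genes with a mean of at least 100 rose, among 32% called.

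Markers of other cells were also read, since immune and stromal cells carry much of the NF-kB response in tissue. In bulk RNA fewer cells of a type and less RNA per cell cannot be told apart. Of 10 immune markers 4 had values, and their summed level was 46.1 to 52.7 normalized reads with VIM-AS1 and 44.2 to 75.8 with the control vector. ITGAM rose among them, at 5.09 ± 1.76 with VIM-AS1 and 0.263 ± 0.456 with the control vector. Of 10 fibroblast and endothelial markers 9 had values, summing to 1845 to 2657 with VIM-AS1 and 2908 to 3779 with the control vector. COL1A1, DCN and PDGFRB fell and VWF rose, while COL1A2, LUM and PECAM1 had means under 1. The part of these markers in the changes above was not tested.

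The genes most like RELB over the 6 libraries were MFN2 (Pearson r = 0.9986 of log2 values), ZDHHC3 (0.9977) and GAL (0.9964), among 9757 genes with a mean of at least 100. For NFKB1 they were ERLIN1 (0.9965), YLPM1 (0.9962) and MPHOSPH6 (0.9935). These values describe 6 libraries that share the groups and the shift of the third libraries, and carry no test.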

How the data were processed

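Gene expression was measured in 6 libraries; the labels' protocols give 1.3 µg of total RNA as input and a kit not named as one that marks strand. fastp, HISAT2 and featureCounts on hg38 are named in the submitters' processing notes; for versions, annotation, strand setting and the normalizing step, the entry is "not given in the sources used here". Deposited values are a normalized signal, gene counts divided by 1 factor per library. In each library 100% of values were whole multiples of 1 step within 0.01 read, the largest distance being 6.08e-05 read. The inverse of the step equalled DESeq2's median-of-ratios factor (0.819 to 1.27), so whole reads could be recovered. Floors cover counting error only, and the intervals of log2 fold changes reflect the spread between libraries.

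Gene IDs were matched to GENCODE 29 (GRCh38), 100% of 25969. The calls come from limma 3.58.1 (R 4.3.3, intensity trend) on log2(value + 1), which makes changes of genes with few reads look smaller, for 20927 genes with a mean of at least 1, without and with a term for the third libraries. All tests were two-sided. Alternatives were other scalings, filters, a pseudocount of 0.1, recovered reads in limma-voom, edgeR 4.0.16 (the main test had the files held raw counts) and DESeq2 1.42.0, a GC and length correction (splines with 5 degrees of freedom, known for 99.9% of genes), a replicate block and each library left out. Leaving out the third library of both groups was chosen after seeing the data.

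Same-numbered libraries deviated together, with a Pearson r of their deviations of 0.319, 0.724 and 0.843 for replicates 1, 2 and 3 across 13175 genes, so the numbers were taken to pair the libraries. The pairing comes from the data, since the labels do not explain the numbers. VIM-AS1 replicate 1 was closer to control replicate 2 (0.418), and control replicate 1 was slightly closer to VIM-AS1 replicate 2 (0.328). The shared shift of the third libraries can by itself raise the values among libraries 1 and 2, so their pairing is uncertain. The fits were tested on simulated data. Named genes were the 10 members, other pathway genes past the threshold with the term (at most 6 per list and direction), VIM-AS1 and the 3 genes most like RELB and NFKB1; a few others were named after their values were seen. Members and lists were chosen with earlier results of these data known.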

Additional observations from a re-analysis of the deposited data

How the results depend on the processing

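With the term, 5 genes rose and none fell under TMM scaling, without a filter, with a minimum of 10 reads per library in either group, with a pseudocount of 0.1, in edgeR, DESeq2 and limma-voom, after the GC and length correction, and with the replicate block; library size scaling left 4. When each library was left out in turn, 1 to 5 rose, and 2 (RELB and NFKB1) rose without the third library of both groups. Without the term or the replicate block, 0 were called in the other settings run, against 2 in DESeq2, 4 after the GC and length correction and 2 without the third library of both groups. Leaving out any single library gave 0. The replicate block takes up the shift of the third libraries, so it is the same fit with and without the term, and called 5. Other pathway genes with the term numbered 10 higher under library size scaling, 6 lower in DESeq2 and 6 lower after the GC and length correction. They numbered 5 higher and 2 lower without the third library of both groups, and from 1 to 16 higher and 1 to 10 lower over single libraries left out. Over all genes, calls with the term ranged from 143 to 2825 higher and 145 to 1668 lower with single libraries left out, and were 620 higher and 481 lower without the third library of both groups. Without the term, 3 higher and 2 lower genes were called, against 5 and 12 without a filter, 15 and 13 under library size scaling, 133 and 220 in DESeq2 and 1533 and 712 after the GC and length correction. Single libraries left out gave 2 to 10 and 0 to 31 without the term. The replicate block gave 3315 and 2256 with or without the term.

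With the term, NFKB2, NFKBIA and BIRC3, which did not pass, changed sign. NFKB2 was at -0.031 under library size scaling and from -0.0124 to 0.0764 over single libraries left out, NFKBIA at 0.0714 after the GC and length correction and from -0.103 to 0.0405 over single libraries, and BIRC3 at 0.00713 in limma-voom and from -0.46 to 0.0192 over single libraries. Without the term, REL also changed sign, at -0.0794 without VIM-AS1 replicate 3, and NFKB2 ran from -0.2189 to 0.269 over single libraries. The cause was not tested. Where the third library of 1 group was left out, the term absorbs that of the other group, so the difference then rests on libraries 1 and 2, and with the third library of both groups left out there is no term. For single genes with the term, 145 comparisons kept direction and side of the threshold, 16 lost the call and 9 changed sign. Depth limits REL and BIRC3, with 15 to 86 reads per library.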
